A study of Homo sapiens with 6 samples.

Results

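The G1 cyclins, CDK6 and CDK inhibitors described here are 10 named genes: CCND1, CCND2, CCND3, CDK6, CDKN1A, CDKN1B, CDKN2A, CDKN2B, CDKN2C and CDKN2D. They were matched by gene symbol, and 8 of them were found among the 19830 genes of the authors' deposited comparison. RNA values of CDKN2A and CDKN2B were not analysed here. The members were picked by name and role, with no threshold on a measured value, though earlier results of these data were known.

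The comparison is between PANC-1 cells given SOX9 siRNA and PANC-1 cells given control siRNA. PANC-1 is an established human cell line derived from a pancreatic ductal carcinoma, and SOX9 is a transcription factor that marks progenitors and ducts of the pancreas. Each siRNA was used at 25 nM and was delivered with Lipofectamine, and pooled cells were harvested 48 hours later, with 2 total RNA libraries per siRNA. All 4 libraries came from this 1 cell line, for which the labels name no engineered allele. PANC-1 is known for a deletion that includes CDKN2A, so it is a limited model of the INK4 arm of this pathway. The series' 2 ChIP-seq samples of SOX9 were not used here.

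D-type cyclins link growth signals to the cell cycle. A D-type cyclin binds CDK4 or CDK6, and the active kinase phosphorylates the retinoblastoma protein and its relatives, which frees E2F factors to switch on genes for S phase. INK4 inhibitors, encoded by CDKN2A to CDKN2D, bind CDK4 and CDK6 and keep the D-type cyclins off them. CIP/KIP inhibitors, p21 from CDKN1A and p27 from CDKN1B, block cyclin E and cyclin A kinases with CDK2, and they also help D-type cyclins assemble with their kinases.

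Of the 19830 genes, 14063 had an adjusted p and are called tested. The log2 fold changes of these genes had a median standard error of 0.215. The siRNA target SOX9 stood at 55.9% of control (39.2% to 79.8%, 95% interval) per the authors' deposited table, where its DESeq2 adjusted p of 0.0643 did not pass 0.05. The numerator of the fold change is not named in the header. Directions were read from the negative sign of SOX9, so SOX9 is no check of the labels and every direction would turn if that reading were wrong. The keratins KRT8, KRT18 and KRT19, markers of simple and duct epithelium, had mean normalized counts of 203350, 130452 and 99583 in the authors' deposited table. The other epithelial markers, EPCAM, CDH1 and KRT7, had far lower mean normalized counts there, of 1699, 1426 and 354. Of the markers of other cell types, the endothelial genes PECAM1, CDH5, VWF and KDR reached at most 3.87 mean normalized counts, and the leukocyte genes PTPRC, CD14 and CSF1R had 2.28, 52.2 and 28.2. CD14 had a log2 fold change of 1.21 with p = 0.0474 by DESeq2 and was not called (adjusted p = 0.440, the authors' deposited table). CD3E was not analysed here. Over whole lists, mean normalized counts summed to 436864 for 6 epithelial markers and 83.9 for 4 leukocyte markers. They summed to 8.62 for 4 endothelial markers and 811 for 6 fibroblast markers. KRT8, KRT18 and KRT19 made up most of the epithelial sum, and KRT7 alone lay below the fibroblast marker COL1A1. EPCAM was called lower, while the other 5 epithelial markers had positive log2 fold changes and were not called. KRT8, KRT18 and KRT19 had log2 fold changes of 0.55, 0.50 and 0.50 (DESeq2 adjusted p = 0.0786, 0.106 and 0.259). The fibroblast marker COL1A1 had a mean normalized count of 448.8 and was called higher in the authors' deposited table, while COL3A1 had 322 counts and was not called, PDGFRB had 32.0, and DCN, LUM and COL1A2 had 4.37, 1.72 and 1.52. The part of such markers in the values below was not tested.

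No member passed the adjusted threshold of 0.05: 0 of the 8 tested members were called by the authors' DESeq2 Wald test. Over all tested genes 1.81% were called, 0.868% higher and 0.939% lower. At an unadjusted p under 0.05 there was 1 member of 8, CCND1, beside 11.1% of all tested genes. Adjusted p-values of the members ran from 0.406 to 0.997, and their point estimates from 76.4% to 115% of control. There were 5 members with a negative log2 fold change and 3 with a positive one, while 52.1% of all tested genes were negative. The median log2 fold change was -0.06 over the members and -0.02 over all tested genes.

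**Figure D1:**
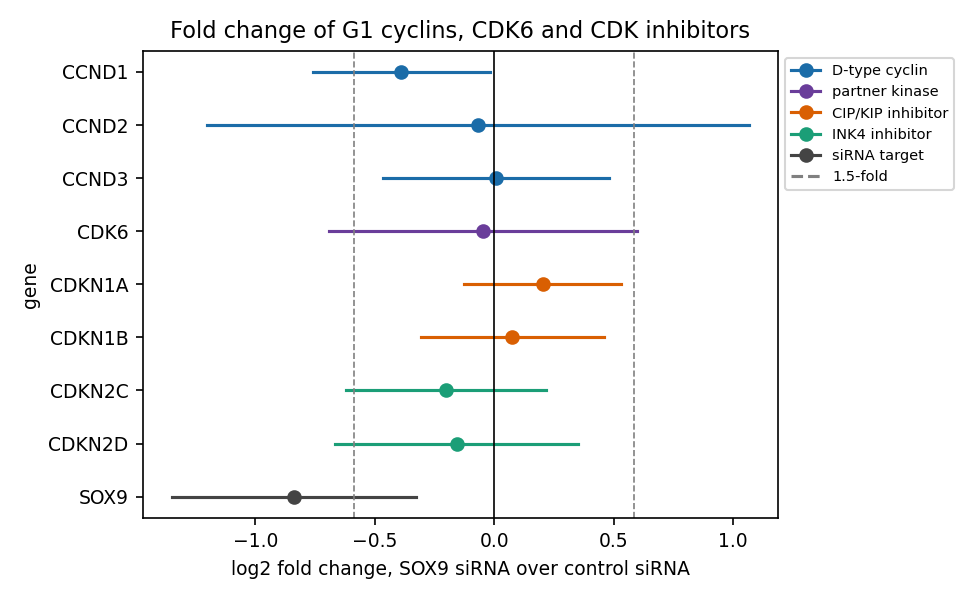
Log2 fold change of SOX9 siRNA over control siRNA for each tested member and for SOX9, with the authors' standard error drawn as a 95% interval (horizontal axis, log2 scale). Dashed lines mark 1.5-fold either way. The interval of CCND1 ends just below 0, the intervals of the other members cross 0, and that of CCND2 is the widest.

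The authors' table gives 1 mean per gene over the libraries, and values of single libraries were not analysed here. To show levels, the mean normalized count of each gene was split into 2 group levels by its own fold change. These implied levels restate the authors' mean and fold change on the count scale. They are not measured group means, they have no SD, and they are not per length, so they compare the siRNA groups within a gene but not one gene with another.

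CCND1 encodes cyclin D1, the D-type cyclin most often in excess in carcinomas. Its implied level was 9982 normalized counts with SOX9 siRNA and 13069 with control siRNA. It stood at 76.4% of control, with a 95% interval from 59.0% to 98.8%, so the upper end lay just under the control level. The log2 fold change of CCND1 was -0.39 with a standard error of 0.19 in the authors' deposited table, where DESeq2 gave p = 0.0403 and adjusted p = 0.406. Ordered by p, CCND1 came at place 1392 of 14063, and 9.91% of tested genes had a lower fold change. The difference at CCND1 therefore did not pass the correction over all genes.

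CCND2 encodes cyclin D2, a close relative of cyclin D1. The mean normalized count of CCND2 was 93.6 in the authors' deposited table, which put it in the lowest of 4 equal groups of tested genes by mean count. Its implied levels were 91.4 normalized counts with SOX9 siRNA and 95.9 with control siRNA. CCND2 had few reads and a wide interval: it stood at 95.4% of control, and its 95% interval ran from 43.4% to 210%. Changes well past 1.5-fold in either direction lay inside that interval.

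CCND3 encodes cyclin D3, which is widely expressed. The implied levels of CCND3 were 2016 normalized counts with SOX9 siRNA and 2006 with control siRNA. It stood at 100% of control, with a 95% interval from 72.3% to 140%. In the authors' deposited table its log2 fold change was 0.01 with a standard error of 0.24 and a DESeq2 adjusted p of 0.997. The 3 D-type cyclins thus had point estimates of 76.4%, 95.4% and 100% of control in the order D1, D2, D3. Their intervals overlap, and the differences between the cyclins were not tested.

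CDK6 encodes a kinase that D-type cyclins activate. Its implied level was 8147 normalized counts with SOX9 siRNA and 8414 with control siRNA, or 96.8% of control (95% interval 62.0% to 151%). CDK6 was measured less precisely than most genes of like mean count. Its log2 standard error was 0.33 in the authors' deposited table, against a median of 0.17 in the highest of the 4 groups by mean count, and 98.8% of the genes in that group had a smaller one. CDK4, the other kinase of the D-type cyclins and not a member, had a log2 standard error of 0.20 and stood at 74.6% of control in the authors' deposited table, with a DESeq2 p of 0.0333 and an adjusted p of 0.369. The intervals of CDK4 (57.0% to 97.7%) and CDK6 overlap, and their difference was not tested.

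**Figure D2:**
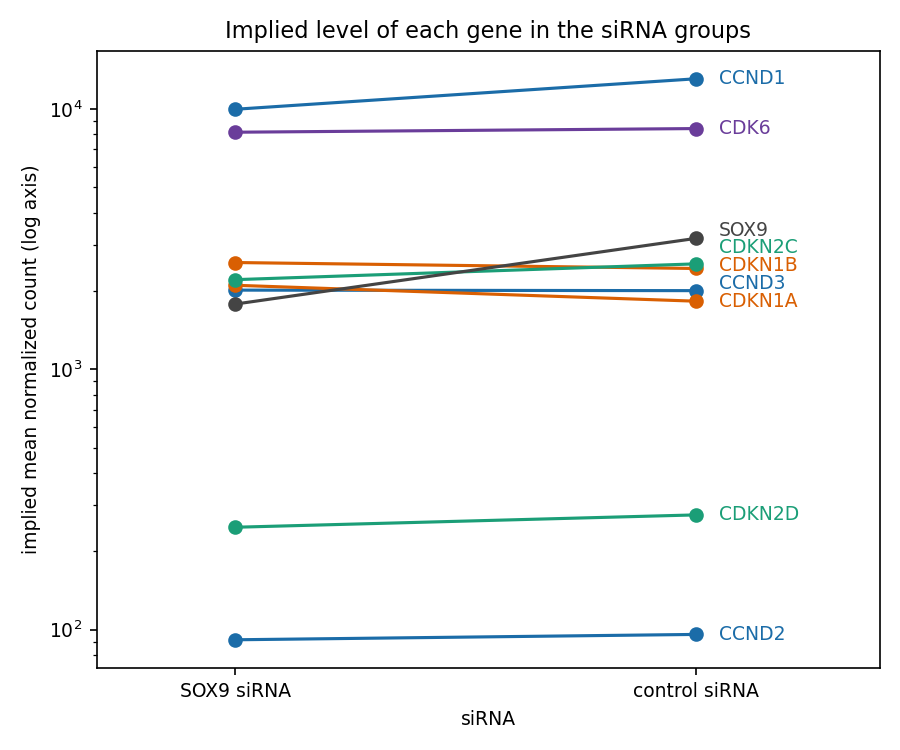
Implied mean normalized count (vertical axis, log scale) with SOX9 siRNA and with control siRNA for the 8 tested members and SOX9, from the authors' mean and fold change, with no error. Each line joins the implied levels of 1 gene. The lines of the members are close to flat beside that of SOX9, and CCND1 has the steepest of them, at 9982 with SOX9 siRNA and 13069 with control siRNA.

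CDKN1A encodes p21, a CDK inhibitor that halts the cycle after stress and DNA damage. Its implied levels were 2104 normalized counts with SOX9 siRNA and 1828 with control siRNA, or 115% of control. The 95% interval of CDKN1A ran from 91.7% to 145%. In the authors' deposited table its log2 standard error was 0.17, the smallest among the members, with a DESeq2 p of 0.226 and an adjusted p of 0.755. A 1.5-fold rise of CDKN1A lay outside its interval.

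CDKN1B encodes p27, which holds cyclin E and CDK2 inactive in resting cells and is mostly controlled by breakdown of the protein. The implied levels of CDKN1B were 2573 normalized counts with SOX9 siRNA and 2441 with control siRNA. It stood at 105% of control (95% interval 80.7% to 138%). The authors' deposited table gave CDKN1B a DESeq2 adjusted p of 0.965. Both CIP/KIP members thus had positive estimates that their errors do not separate from no change.

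CDKN2C and CDKN2D encode the INK4 proteins p18 and p19. Implied levels of CDKN2C were 2211 normalized counts with SOX9 siRNA and 2542 with control siRNA, which is 87.0% of control (95% interval 65.0% to 116%). Implied levels of CDKN2D were 247 normalized counts with SOX9 siRNA and 276 with control siRNA, or 89.7% of control, with an interval from 63.0% to 128%. Both estimates were negative and both intervals cross the control level. The DESeq2 adjusted p-values in the authors' deposited table were 0.842 for CDKN2C and 0.924 for CDKN2D.

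The size of change that could have been called was computed from each standard error. The least significant called gene had a p of 0.000901, which needs a fold change of 3.32 standard errors. For CDKN1A that is a rise to 147% of control or a fall to 68.0%. CCND1 would have needed a fall to 64.6% of control, against its estimate of 76.4%. CDK6 would have needed a rise to 213% or a fall to 47.0%, and CCND2 a rise to 379% or a fall to 26.4%. The other 4 tested members would have needed a rise to between 157% (CDKN1B) and 182% (CDKN2D). For CCND3, CDKN1A and CDKN1B, 3 of 8 members, the whole 95% interval lay within 1.5-fold of control either way, as it did for 40.3% of all tested genes. A change of 1.5-fold lay inside the interval of the other 5 members.

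**Figure D3:**
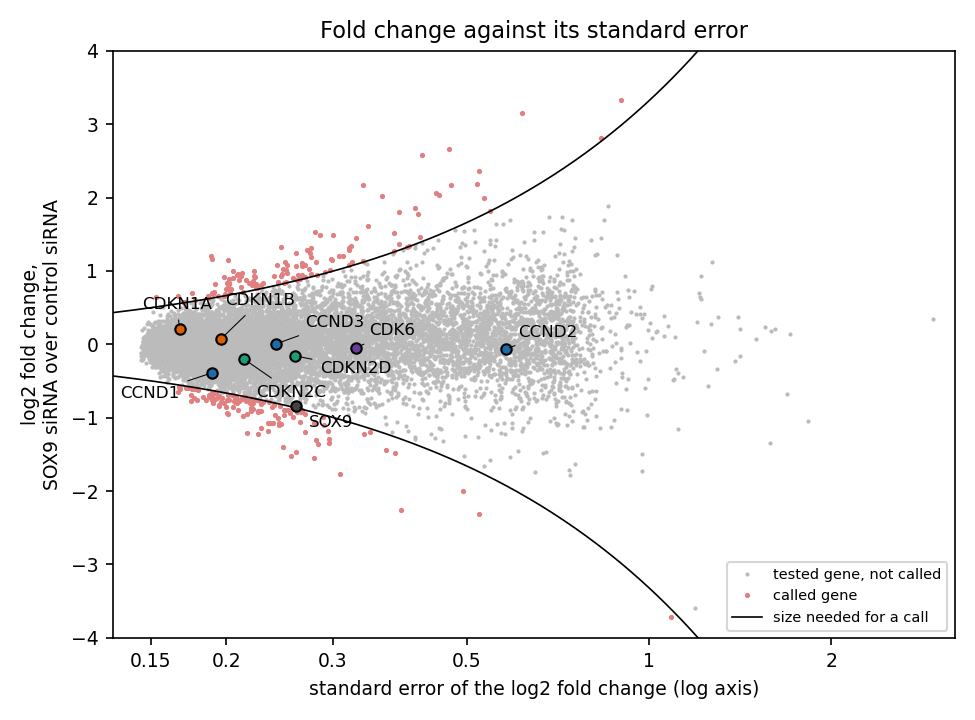
Log2 fold change of SOX9 siRNA over control siRNA (vertical axis) against its standard error (horizontal axis, log scale) for all 14063 tested genes, with the tested members and SOX9 outlined. Curves mark the 3.32 standard errors needed for a call. All 8 members lie between the curves, CDK6 and CCND2 to the right of the others.

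Around these genes, the pathway was read through 10 gene lists. The lists were chosen with earlier results of these data known, so their counts are a description. Of 109 genes 103 were tested, and 0 were called by the authors' DESeq2 test, beside 1.81% of all tested genes. At an unadjusted p under 0.05 there were 15, all 15 with a negative log2 fold change. The background at that unadjusted threshold, in either direction, is 11.1%.

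The kinases and cyclins that act beside and after the D-type cyclins all had negative estimates. All 10 tested genes of this list were negative, beside 52.1% of all tested genes, and 0 were called. The list's median log2 fold change was -0.49 against -0.02 over all tested genes. At an unadjusted p under 0.05 there were 6 of 10, beside 11.1% of all tested genes. CCNE1 and CCNE2 encode the E cyclins that drive entry into S phase. The authors' deposited table put them at 55.1% and 65.6% of control (DESeq2 adjusted p = 0.194 and 0.440). CDK2, the kinase of cyclins E and A, stood at 66.9% of control there, with an adjusted p of 0.251. CDK1, the mitotic kinase and the list's gene with the highest mean normalized count, stood at 67.8% (DESeq2 adjusted p = 0.0667, the authors' deposited table). CDC25A, a phosphatase that activates CDK2 and was picked out once its value was known, stood at -0.63 on the log2 scale with a standard error of 0.80 in the authors' deposited table.

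The retinoblastoma proteins and E2F factors lie downstream of cyclin D kinases. In this list 12 of 13 tested genes were negative, beside 52.1% of all tested genes. Its median log2 fold change was -0.39, and 2 of 13 genes had an unadjusted p under 0.05, beside 11.1% of all tested genes. RB1, the retinoblastoma gene, had a log2 fold change of -0.07 (DESeq2 adjusted p = 0.956, the authors' deposited table). TFDP1, the dimer partner of E2F factors and the gene of this list with the highest mean normalized count, stood at 63.7% of control (DESeq2 adjusted p = 0.169, the authors' deposited table). Among the S phase genes that E2F factors activate, 17 of 18 were negative, with a median of -0.43. At an unadjusted p under 0.05 there were 5 of these 18, beside the same 11.1%. RRM2, a ribonucleotide reductase subunit and the S phase gene with the highest mean normalized count, had a log2 fold change of -0.41 (DESeq2 adjusted p = 0.653, the authors' deposited table). The S phase list shares CCNE1 and CCNE2 with the kinase and cyclin list.

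**Figure D4:**
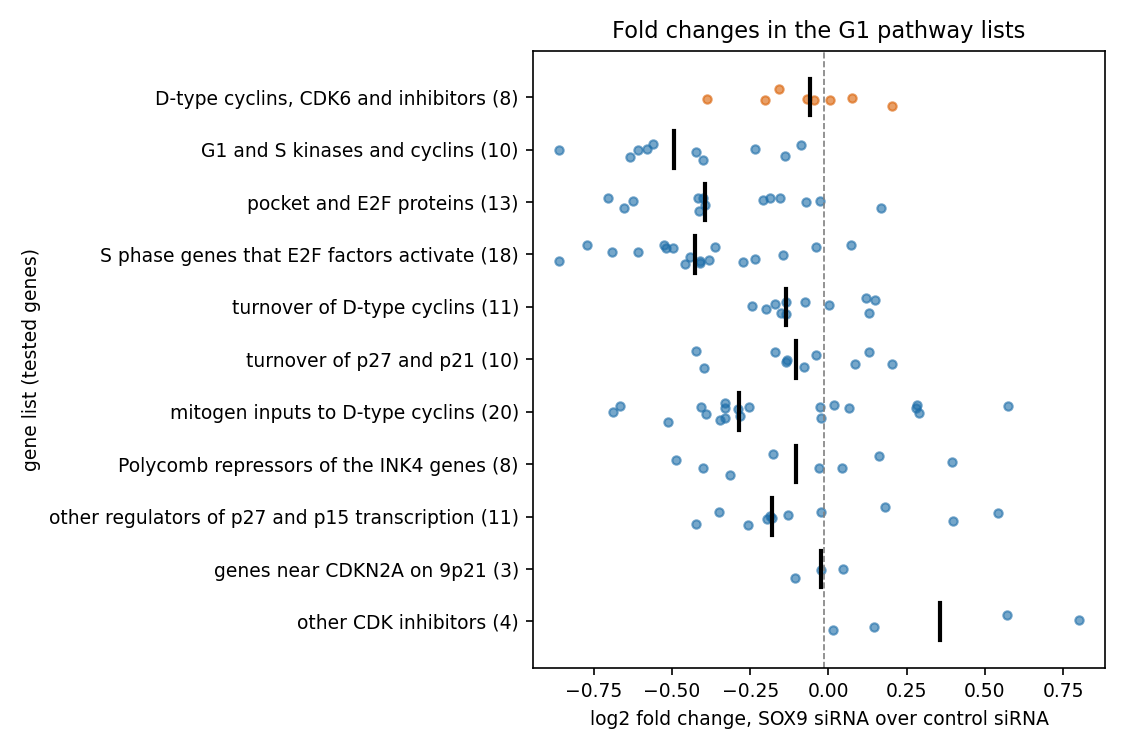
Log2 fold change of SOX9 siRNA over control siRNA (horizontal axis) for each tested gene of the members, in orange, and of the 10 pathway lists, in blue, with the number tested in brackets. Black bars are medians and the dashed line is the median of all tested genes, -0.02. The members straddle that line, while the 3 lists of kinases, E2F proteins and S phase genes lie mostly to its left.

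Inputs to the D-type cyclins and the machinery that removes cyclins and inhibitors were mixed. Mitogen-responsive factors were negative in 14 of 20 tested genes, beside 52.1% of all tested genes, with a median log2 fold change of -0.28. At an unadjusted p under 0.05 there were 3 of these 20, beside 11.1% of all tested genes. STAT3, a cytokine-activated factor with the list's highest mean normalized count, had a log2 fold change of 0.07 (DESeq2 adjusted p = 0.965, the authors' deposited table). FOSL1, an AP-1 subunit downstream of ERK, stood at 62.1% of control with an adjusted p of 0.0643, and MYC at 76.3% with 0.324 in the authors' deposited table. Both were named after their values were seen, and 6 tested genes of the list were positive. JUN, another AP-1 subunit named after its value was seen, stood at 149% of control (DESeq2 adjusted p = 0.556, the authors' deposited table). Genes of D-type cyclin turnover were negative in 7 of 11, with a median of -0.14 and 0 at an unadjusted p under 0.05. DDB1, an adaptor of CUL4 ubiquitin ligases and the most abundant by mean count, had a log2 fold change of -0.14 (DESeq2 adjusted p = 0.865, the authors' deposited table). Genes of p27 and p21 turnover were negative in 7 of 10, with a median of -0.10, and they share SKP1, CUL1 and RBX1 with the cyclin turnover list. SKP1, a core part of SCF ubiquitin ligases, had a log2 fold change of -0.17 (DESeq2 adjusted p = 0.778, the authors' deposited table). SKP2, which marks p27 for breakdown and was named after its value was seen, stood at 74.6% of control with a p of 0.0256 and an adjusted p of 0.328 there.

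Regulators of the inhibitor genes showed no call either. Polycomb repressors of the INK4 genes were negative in 5 of 8, with a median of -0.10. SUZ12, a core subunit of PRC2, had a log2 fold change of -0.31 (DESeq2 adjusted p = 0.568, the authors' deposited table). Among other regulators of p27 and p15 transcription 8 of 11 were negative, with a median of -0.18, and SMAD3, which carries TGF-beta signals, had a log2 fold change of -0.20 (DESeq2 adjusted p = 0.767, the authors' deposited table).

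CDK inhibitors outside the members were all positive, 4 of 4, while 52.1% of all tested genes were negative. Their log2 fold changes ran from 0.01 to 0.80, with a median of 0.36 against -0.02 over all tested genes. In this list 0 genes had an unadjusted p under 0.05. CDKN1C, which encodes p57 of the CIP/KIP family, had a log2 fold change of 0.80 with a standard error of 0.61 in the authors' deposited table, with 180 mean normalized counts and a DESeq2 adjusted p of 0.713. CDK2AP1, a CDK2-associated protein with the highest mean normalized count of these 4, had a log2 fold change of 0.01 there, with an adjusted p of 0.990. Near CDKN2A on chromosome arm 9p21, 3 of 6 listed genes were tested. MTAP, a methionine salvage enzyme that lies beside CDKN2A, had a mean normalized count of 626 and a log2 fold change of -0.11 (DESeq2 adjusted p = 0.944, the authors' deposited table). KLHL9, which encodes a CUL3 ligase adaptor, had a mean normalized count of 1244 and a log2 fold change of 0.05 there, with an adjusted p of 0.976. CDKN2B-AS1, the antisense RNA of this locus, was not analysed here.

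Promoter windows, from 250 bases before to 50 bases after each annotated start, were read from RefSeq on build GRCh38.p14. The 14 windows read belong to CCND3, CDK6, CDKN1A, CDKN1B, CDKN2A, CDKN2B, CDKN2C and CDKN2D, out of 35116 windows in all. They are reference sequence, not that of PANC-1, and they include CDKN2A and CDKN2B, whose RNA values were not analysed here. Windows of CCND1 and CCND2 were not used here, so the counts below do not cover them. Motifs were searched on both strands as exact letters. The SOX core AACAAT was in 0 of 14 member windows and in 10.1% of all windows. E2F motifs TTTCCCGC and TTTGGCGC and the cyclic AMP response elements TGACGTCA and TGACGTAA were also in 0 of 14, and in 1.63%, 0.652%, 1.85% and 0.416% of all windows in that order. The GC box GGGCGG was in 10 of 14 member windows and in 45.0% of all windows. G and C made up 46.3% (CDKN2C) to 78.0% (CDK6) of the bases of single member windows. The median over all windows was 58.7%, and most member windows lay above it. Several member windows belong to the same gene, and the part of GC content in this count was not tested. A missing match says only that these letters are not in these windows.

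A window of 1 CIP/KIP gene, CDKN1A, and of 1 INK4 gene, CDKN2C, is printed 5′ to 3′ to show the GC boxes, in capitals, in an inhibitor gene of each family. The CDKN1A window is chr6:36678464-36678763 on the plus strand, with GC boxes that begin 104, 94, 45 and 40 bases before the start. The CDKN2C window, 1 of several annotated starts, is chr1:50968456-50968755 on the plus strand, with 5 GC boxes before the start, at 109, 105, 67, 60 and 49 bases, and 1 at base 28 after it. It is the richest CDKN2C window in GC boxes, with 34 bases inside them, against 0 and 6 in the other CDKN2C windows. Boxes at 45 and 40 bases in CDKN1A, and at 109 and 105 bases in CDKN2C, run into each other.
CDKN1A: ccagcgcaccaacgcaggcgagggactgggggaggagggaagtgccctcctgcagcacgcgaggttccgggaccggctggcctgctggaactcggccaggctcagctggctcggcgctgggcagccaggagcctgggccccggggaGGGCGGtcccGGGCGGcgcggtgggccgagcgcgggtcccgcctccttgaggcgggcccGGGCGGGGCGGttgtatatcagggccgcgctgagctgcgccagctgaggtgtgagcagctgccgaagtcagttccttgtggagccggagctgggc
CDKN2C: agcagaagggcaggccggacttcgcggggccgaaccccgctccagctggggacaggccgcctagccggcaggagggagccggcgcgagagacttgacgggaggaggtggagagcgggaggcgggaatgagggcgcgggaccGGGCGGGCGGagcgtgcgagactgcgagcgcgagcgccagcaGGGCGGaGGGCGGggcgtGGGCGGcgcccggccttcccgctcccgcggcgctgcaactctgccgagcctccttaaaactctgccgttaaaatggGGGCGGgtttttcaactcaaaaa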

How the data were processed

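Per the submitters' processing notes, RNA reads were handled with HISAT2 2.0.5, featureCounts and DESeq2 1.18.1. The notes list hg19 and mm10 with no role. Strand settings are not given in the sources used here. The file is the authors' DESeq2 table. Per the file headers, it holds the authors' mean normalized count, a signal scaled by size factors, the authors' log2 fold change with its standard error, the authors' Wald statistic, a score, and the authors' p-value and adjusted p-value. Its mean normalized counts sum to 47653185, and the depth of single libraries was not analysed here. The 5767 genes with no adjusted p had mean counts of 21.9 or less.

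The labels do not state separate cultures for the 2 libraries per siRNA, so p-values measure the spread between libraries, which may be technical. Fold in the text is 2 to the power of the deposited log2 fold change. Intervals are 95% Wald intervals of 1.96 standard errors. Adjusting the p-values of the 14063 tested genes again by Benjamini-Hochberg differed from the file by at most 9.44e-15. Abundance groups are 4 equal sets of tested genes by mean count.

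The members and lists were chosen with earlier results of these data known. Always named were the members, SOX9, their direct partners and neighbours, and each list's called genes and its most abundant gene not called. Some genes that the rule selects, and the list that holds them, are not reported here. With 1 contrast, no likeness of pattern between genes could be measured. Alternatives were other adjustments, thresholds, count minimums, centring and a test against 1.5-fold. The Wald test, its interval and the adjustment were run on fold changes simulated with the authors' standard errors. That simulation takes those errors as given, so it cannot check them. Python 3.11.15, pandas 2.3.3, numpy 2.4.6 and scipy 1.17.1 were used.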

Additional observations from a re-analysis of the deposited data

How the results depend on the processing

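The count of called members was 0 of 8 under all 6 alternatives tried: adjustment over every gene, a mean count of at least 100 (7 members left), thresholds of 0.1 and 0.01, centring, and a test against 1.5-fold. Over all genes the count of 254 fell to 191 with adjustment over every gene and rose to 368 at a threshold of 0.1. It fell to 109 at a threshold of 0.01 and to 3 in the test against 1.5-fold. With a mean count of at least 100 it was 260, and with centring 253. In the pathway lists 0 genes were called, and 2 at a threshold of 0.1, CDK1 and FOSL1. The threshold of 0.01 and the test against 1.5-fold could only lose calls. The direction of a single member could change only under the 2 centrings, where 15 of 16 values kept it. The exception was CDK6, whose log2 fold change of -0.05 became 0.027 when centred on the median of its abundance group. The members' median log2 fold change was -0.04 when centred on all tested genes and -0.07 when centred within abundance groups. No paired analysis was possible because the columns used are a comparison of groups and carry no replicate numbers. For the same reason, leaving out single libraries was not run. Precision is lowest at CCND2, which has few reads, and at CDK6.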
